A study of Homo sapiens with 12 samples.

Results

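U87 cells given compound 4 at 10 µM were compared directly with U87 cells given compound 1 at 30 µM, both harvested after 72 h, by sequencing of poly(A) RNA. Each compound had 3 libraries, so the comparison rests on 6 of the 12 libraries in the series. Vehicle-treated cells from the same experiment (3 libraries) are given beside both compounds. Another 3 libraries, from cells given compound 5 at 5 µM, enter through the mean that selects genes and the shared estimate of spread. Their values are given for a few genes only. U87, also called U87MG, is a human glioblastoma line bought from ATCC and grown in serum-containing medium, and a single line was used throughout. Libraries of a group were prepared as independent biological replicates, per the labels. Taxodione, a plant diterpene, and paclitaxel, which stabilizes microtubules, are named in the series title, but no label ties either name to a number, so the compounds are called by number here. The doses differed together with the compounds, and the effects of compound and of dose cannot be told apart.

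Cells make cholesterol through the mevalonate pathway and fatty acids through acetyl-CoA carboxylase and fatty acid synthase, and the SREBP transcription factors switch on the genes of both routes when sterol in the endoplasmic reticulum runs low. NF-kB and AP-1 drive the genes of secreted cytokines and chemokines, which glioblastoma cells are known to release, and HSF1 drives the genes of heat shock chaperones. The genes that crosslink collagen and many genes of glycolysis are known to be induced by hypoxia.

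The deposited values are rlog values (regularized log, on the log2 scale). Of the 62757 genes in the table, 15524 had a mean of at least 3 over the 12 libraries, about 8 normalized counts, and were tested. At that limit, MYLK3 had a mean of 3.0002 and was tested, while ENSG00000268649 had a mean of 2.9988 and was not. Limma called 6627 genes at a Benjamini-Hochberg adjusted p under 0.05, 42.7% of those tested, with 3238 higher and 3389 lower with compound 4 than with compound 1. The same fit called 6300 genes (40.6%) for compound 4 against vehicle and 1688 (10.9%) for compound 1 against vehicle, and the 3 vehicle libraries are shared by both of these comparisons. The count of 1688 was 1043 without compound 1 replicate 1, 978 without compound 1 replicate 3, 1056 without vehicle replicate 1 and 849 without vehicle replicate 2. All 3 compound 4 libraries were above all 3 compound 1 libraries for 26.0% of the genes tested, and below them for 27.0%. Most called differences were small, with a median size of 0.185, and 26 genes were higher and 18 lower by 1 or more. Libraries of compound 4 stood 0.177 to 0.218 from those of compound 1 (root mean square difference over genes), against 0.0606 to 0.0714 within compound 4 and 0.0636 to 0.0858 within compound 1. The rlog step pulls the values of weakly expressed genes towards their mean, so their differences and their spread are both understated, and the depth of the libraries is unknown. The glial label was met in part: 10 of 16 glial and neural stem cell markers had a mean of at least 3, OLIG1 was at 0 in every library, and SOX2, S100B and AQP4 were below 3. Among markers of other cell types, 8 of 12 neuronal, 2 of 12 leukocyte, 5 of 10 epithelial and 6 of 10 endothelial genes passed the same limit, with CD3D and KRT5 at 0. In bulk RNA, fewer cells of a type and less RNA per cell cannot be told apart.

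The 12 largest differences upwards with compound 4 relative to compound 1 were mostly in genes of cytokines and chemokines, the others being HSPA6, SERPINB2 and HMOX1, and the 12 largest downwards were mostly in genes of sterol and fatty acid enzymes, the others being INSIG1, TXNIP and IGFBP3. IL1B, the proinflammatory cytokine interleukin-1 beta (chr2:112829751-112836903, GENCODE 29 on GRCh38), had rlog values of 15.44, 15.52 and 15.34 with compound 4, against 12.67, 13.03 and 12.51 with compound 1, and 12.74, 13.02 and 12.96 with vehicle. Every compound 4 library was above every compound 1 library, since both sets of 12 were chosen among genes whose libraries of the compounds did not overlap. The compound 1 and vehicle libraries overlapped. The difference between the compounds was 2.7 ± 0.082 (SE, n = 3 each; 6.49-fold; limma, adjusted p = 1.07e-19). HMGCS1, which makes the HMG-CoA from which mevalonate is formed (chr5:43289395-43313512), had 10.14, 9.99 and 10.32 with compound 4, against 12.48, 12.15 and 12.49 with compound 1, and 12.56, 12.36 and 12.42 with vehicle. Here every compound 4 library was below every other library named, and the difference was -2.23 ± 0.072 (SE, n = 3 each; limma, adjusted p = 2.94e-19), a 4.68-fold lower level. CSF3, IL11, LIF, CXCL8 and IL6 were also among the 12 largest upwards, and SCD, MSMO1, FASN and DHCR7 among the 12 largest downwards.

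**Figure D1:**
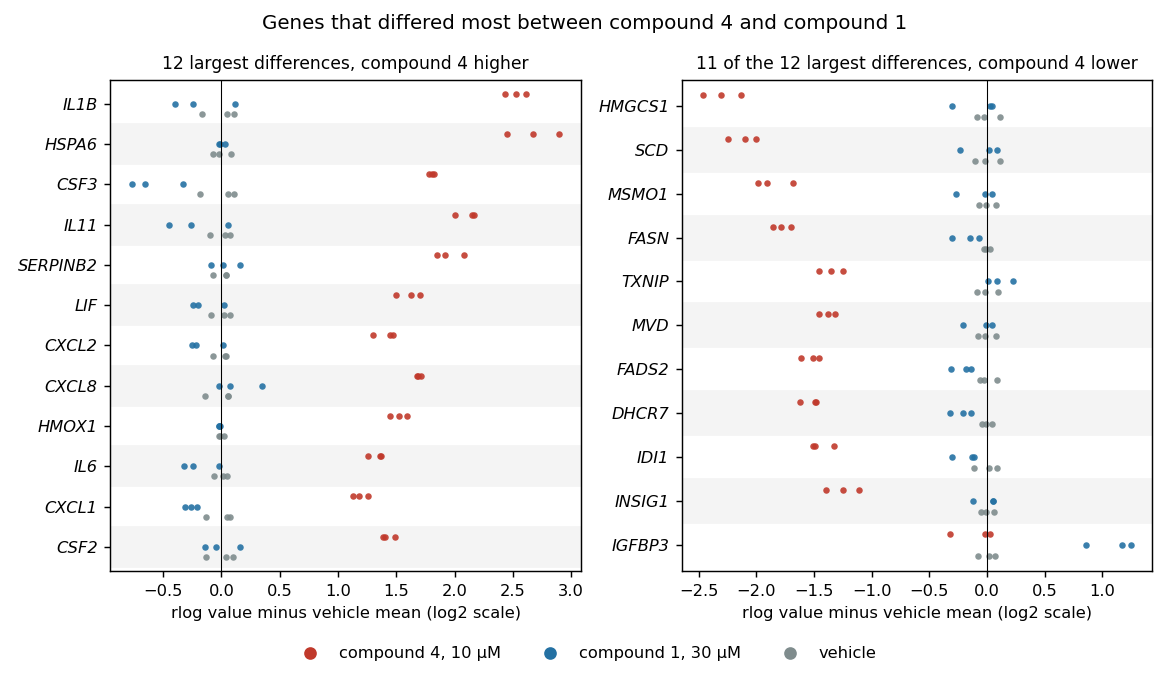
The 12 largest differences upwards (left panel) and 11 of the 12 largest downwards (right panel) between compound 4 and compound 1 are drawn as rlog value minus the vehicle mean (log2 scale), 1 point per library, with compound 4 above compound 1 and vehicle in each row. Most genes have compound 4 far from vehicle and compound 1 near it; IGFBP3 shows the reverse, with compound 1 higher than vehicle by 1.09 on average.

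Calls were more frequent among strongly expressed genes. Of genes with a mean between 3 and 5, 17.5% were called, against 51.6% of those between 8 and 11 and 62.3% of those at 11 or more, and 27 of the called differences of 1 or more were in that highest band. Counts of list members between the compounds, given below, stand beside 20.9% of all genes tested higher and 21.8% lower. Lists of strongly expressed genes stand beside larger shares. By class, 47.4% of 12764 protein-coding genes were called, against 24.0% of 1720 long noncoding genes. Among genes with a LINC or antisense name, PAX8-AS1 was higher by 1.43, ZMIZ1-AS1 by 0.75 and LINC01963 by 0.52 with compound 4, while LINC03040 differed by -0.62, SNAI3-AS1 by -0.53 and ZNF710-AS1 by -0.43. GENCODE 29 places LINC03040 among the protein-coding genes, and the others among the long noncoding ones. None of these 6 was called for compound 1 against vehicle.

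**Figure D2:**
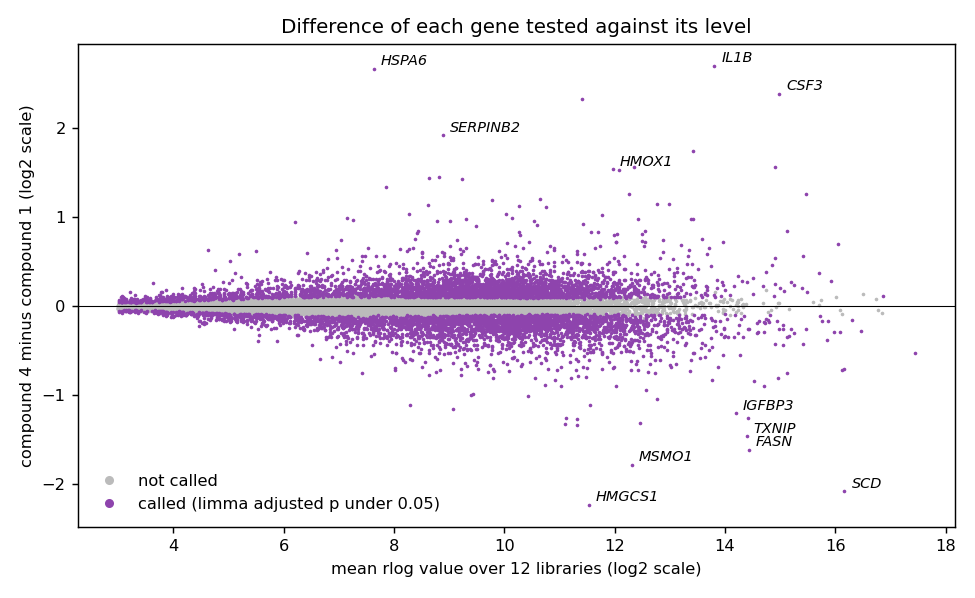
The difference between compound 4 and compound 1 (rlog, log2 scale) is plotted against the mean over all 12 libraries for the 15524 genes tested, purple where called by limma and grey where not. The called genes include 26 that are higher by at least 1 and 18 that are lower by at least 1, and the named points at both ends are among the largest differences.

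Genes of cholesterol synthesis were lower with compound 4 than with compound 1 at most steps of the pathway. Of 9 genes of the mevalonate pathway, 7 fell and 0 rose, where 21.8% of all genes tested fell and 20.9% rose, and the median difference of the list was -0.81 against -0.0008 over all genes tested. MVD, which makes isopentenyl diphosphate, differed by -1.33, and IDI1, which isomerizes it, by -1.26. The members that were not called were PMVK and GGPS1, at 0.0052 and -0.10, and both are named here after their values were seen. All 12 genes from squalene to cholesterol fell, with differences of -0.19 to -1.78 and a median of -0.54. MSMO1, which removes methyl groups from sterol intermediates, had 11.11, 11.03 and 11.34 with compound 4, against 13.00, 12.75 and 13.06 with compound 1. Its difference of -1.78 was followed by those of DHCR7, the last reductase of the pathway (-1.31), SQLE, the squalene epoxidase (-1.11), and FDFT1, the squalene synthase (-1.04).

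The regulators of this pathway and the genes of sterol uptake fell less. Of 13 genes for SREBP factors, their processing and sterol uptake, 9 fell and 0 rose, with a median of -0.18. INSIG1, an SREBP target that holds the factors back in the endoplasmic reticulum, had 13.68, 13.53 and 13.82 with compound 4, against 14.98, 14.81 and 14.98 with compound 1, a difference of -1.25. NPC1, which exports cholesterol from lysosomes, differed by -0.66, SREBF2 by -0.65 and SREBF1 by -0.61. Of 6 genes of sterol efflux and LXR signalling, 2 rose and 2 fell (median -0.062), and ABCA1, the sterol efflux pump, was higher by 0.36. Against vehicle, compound 4 gave 7 lower of 9 mevalonate genes and 12 lower of 12 later genes, where 21.6% of all genes tested fell, and compound 1 gave 4 and 7 lower, where 5.63% fell. The median difference of compound 1 from vehicle was -0.091 for the mevalonate genes and -0.18 for the later ones, against -0.0029 over all genes tested. FDFT1 differed from vehicle by -1.34 with compound 4 and by -0.30 with compound 1, and DHCR7 by -1.53 with compound 4 and by -0.22 with compound 1, all 4 called. Without vehicle replicate 1, 2 of the 9 mevalonate genes, not 4, were lower with compound 1.

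Fatty acid synthesis followed the same direction between the compounds, with 12 of 18 genes lower, 3 higher and a median of -0.41. Over all genes tested, 21.8% were lower and 20.9% higher. SCD, the desaturase that makes oleate, had 14.89, 14.74 and 14.99 with compound 4, against 17.01, 16.76 and 17.08 with compound 1, and 17.10, 16.89 and 16.97 with vehicle. All 3 compound 4 libraries were far below those of compound 1 and vehicle, and the difference between the compounds was -2.08 ± 0.067 (SE, n = 3 each; limma, adjusted p = 2.73e-19), 4.22-fold lower. FASN, the fatty acid synthase, differed by -1.61, FADS2, a desaturase of polyunsaturated fatty acids, by -1.32, and ACSS2, which makes acetyl-CoA from acetate, by -0.89. FASN and FADS2 differed from vehicle by -1.78 and -1.53 with compound 4 and by -0.17 and -0.21 with compound 1, all called.

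**Figure D3:**
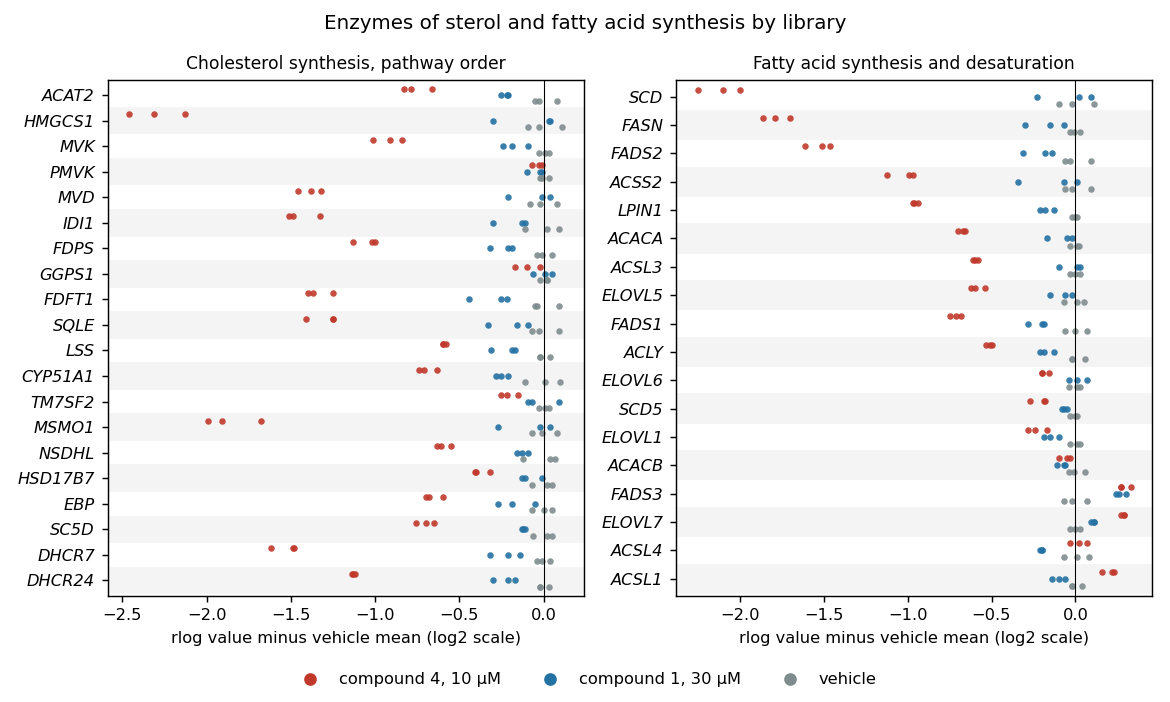
Rlog values minus the vehicle mean (log2 scale) are shown for genes of cholesterol synthesis in pathway order (left) and fatty acid synthesis (right), 1 point per library, with compound 4 above compound 1 and vehicle in each row. For HMGCS1, MSMO1, SCD and FASN all compound 4 libraries lie more than 1 unit below vehicle and the compound 1 libraries lie near it.

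The search of 300-base promoters (250 bases before to 50 after the start, RefSeq, GRCh38.p14) for the sterol element TCACNCCAC on both strands found it in 0 of the 16 cholesterol synthesis genes with a promoter in the table and in 1 of 12 of the SREBP and uptake list, SREBF2. It was present in 1.39% of 27305 genes, and a missing match says only that these letters are not in this window.

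Secreted inflammatory factors rose with compound 4 relative to compound 1. Of 20 measured genes, 15 rose and 2 fell, with a median difference of 1.27, and 15 were also higher than with vehicle, where 19.0% of all genes tested were. CSF3, granulocyte colony-stimulating factor (chr17:40015361-40017813), had 16.27, 16.23 and 16.26 with compound 4, against 13.79, 14.12 and 13.68 with compound 1, and 14.27, 14.56 and 14.51 with vehicle. The 3 groups did not overlap, compound 4 being the highest and compound 1 the lowest. CSF3 differed between the compounds by 2.39 ± 0.079 (SE, n = 3 each; 5.23-fold; limma, adjusted p = 4.74e-19), of which 1.80 was compound 4 above vehicle and -0.58 was compound 1 against vehicle (adjusted p = 1.55e-05). IL6, a cytokine that signals through gp130, had 12.95, 12.96 and 12.85 with compound 4, against 11.35, 11.57 and 11.27 with compound 1, and 11.53, 11.60 and 11.64 with vehicle, a difference of 1.53 between the compounds. Compound 1 differed from vehicle by -0.20 (limma, adjusted p = 0.0212), with overlapping libraries.

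IL11 and LIF, cytokines that also signal through gp130, were higher by 2.33 and 1.75, and CSF2, the granulocyte-macrophage factor, by 1.44. Of the neutrophil chemokines, CXCL8 had 15.88, 15.85 and 15.86 with compound 4, against 14.24, 14.52 and 14.15 with compound 1, and differed by 1.56. CXCL2 differed by 1.56 and CXCL1 by 1.45, and these close paralogs may share reads. Compound 1 against vehicle gave 1 higher and 5 lower of the 20 genes, where 5.24% of all genes tested were higher and 5.63% lower. That count of 5 was 2 without compound 1 replicate 1, 3 without vehicle replicate 2 or 3, and 8 without compound 1 replicate 2 or compound 5 replicate 1. Named after their values were seen, the members lower with compound 4 than with compound 1 were TSLP (-0.43) and CSF1 (-0.38), and TNF, CCL2 and CCL5 were not called, at 0.011, 0.0076 and 0.0030. The summed level of the 2 leukocyte markers that passed the limit was 8.0 to 8.12 with compound 4, 7.71 to 7.95 with compound 1 and 7.77 to 7.82 with vehicle, CSF1R alone being called (0.22), and the part of this in the cytokine values was not tested.

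The kB element, the site class bound by NF-kB (GGGA, any base, then TTTCC), was searched on both strands of the RefSeq promoters. It was present in 6 of the 17 inflammatory factors that had a promoter in the table, 35.3%, against 185 of 27305 genes, 0.678%. The 6 are not independent, since the windows of CXCL2 and CXCL3 were identical, as were those of CXCL5 and CXCL6. CXCL6 was not among the genes tested and is not printed. IL1B, CSF3, IL11 and LIF, with the largest differences of the list, had no match or no promoter in the table. The matches in CXCL1, CXCL2, CXCL3, CXCL5 and IL6, each called higher with compound 4, are printed because they let the shared letters be compared, with the element in capitals and 8 bases on each side. CXCL3 and CXCL5, which were higher by 1.20 and 1.34, were picked by this match and not by the rule for named genes. Regions are chr4:73869306-73869331 (+) for CXCL1, chr4:74099256-74099281 (-) for CXCL2, chr4:74038751-74038776 (-) for CXCL3, chr4:73998751-73998776 (-) for CXCL5 and chr7:22727119-22727144 (+) for IL6.
CXCL1: ggaactccGGGAATTTCCctggcccg
CXCL2: ggagctccGGGAATTTCCctggcccg
CXCL3: ggagctccGGGAATTTCCctggcccg
CXCL5: tgagttcaGGGAATTTCCccagcatc
IL6: tcaaatgtGGGATTTTCCcatgagtc
In IL6 the element begins 73 bases before the start, within the 250 upstream bases at chr7:22726950-22727199 (+), shown because IL6 is among the genes with both a large difference and the element.
IL6 upstream: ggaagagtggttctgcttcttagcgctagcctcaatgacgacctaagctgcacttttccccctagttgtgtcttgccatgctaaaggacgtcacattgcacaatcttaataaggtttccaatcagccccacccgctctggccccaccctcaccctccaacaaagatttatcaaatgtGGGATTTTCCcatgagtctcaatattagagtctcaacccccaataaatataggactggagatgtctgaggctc
The AP-1 element TGANTCA was present in 4 of the 17 factors, CCL7, CXCL8, IL11 and IL1A (23.5%), against 9.37% of all genes. A match describes letters in this window and was not tested as a binding site.

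Genes of NF-kB feedback and of prostaglandin synthesis also gave more calls upwards than downwards, where 20.9% of all genes tested rose and 21.8% fell. Of 16 genes for NF-kB subunits and feedback, 8 rose and 2 fell with compound 4 relative to compound 1, with a median of 0.067. In means, called or not, 8 were above compound 1 and 8 below it. The 2 that fell were 0 without compound 4 replicate 2. NFKBIZ, a nuclear regulator of IL6-type genes, was higher by 0.66, TRAF1, a signalling adaptor, by 0.62, BIRC3, a ubiquitin ligase of TNF signalling, by 0.48 and NFKBIB, an inhibitor of NF-kB, by 0.43. Of 9 genes of prostaglandin synthesis, 5 rose and 0 fell. PTGS2, the inducible cyclooxygenase, had 13.59, 13.47 and 13.56 with compound 4, against 12.33, 12.46 and 12.38 with compound 1, and differed by 1.15, and PTGES, which makes prostaglandin E2, differed by 0.85.

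Heat shock chaperones were higher with compound 4 than with compound 1, and part of that difference lay in lower levels with compound 1 than with vehicle. HSPA6, a stress-inducible HSP70 (chr1:161524540-161526910), had 9.36, 9.81 and 9.58 with compound 4, against 6.89, 6.94 and 6.90 with compound 1, and 6.89, 6.84 and 6.99 with vehicle. Compound 4 libraries stood above both other groups, and compound 1 and vehicle overlapped. The difference between the compounds was 2.67 ± 0.070 (SE, n = 3 each; 6.37-fold; limma, adjusted p = 4.91e-21), and compound 1 differed from vehicle by 0.0027, which was not called.
HSPA6 upstream: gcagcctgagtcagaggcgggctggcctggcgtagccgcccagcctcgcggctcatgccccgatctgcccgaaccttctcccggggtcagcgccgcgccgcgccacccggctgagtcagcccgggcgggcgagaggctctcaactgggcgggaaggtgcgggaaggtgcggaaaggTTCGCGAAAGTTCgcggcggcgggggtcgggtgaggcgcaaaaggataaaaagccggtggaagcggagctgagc
These 250 bases before the HSPA6 start (RefSeq, GRCh38.p14, chr1:161524290-161524539, +) are shown for the heat shock element in capitals, the site class bound by HSF1, which begins 74 bases before the start. The element (GAA, any 2 bases, TTC, any 2 bases, GAA, on either strand) was present in 8 of 31 chaperone genes with a promoter in the table (25.8%), against 166 of 27305 genes (0.608%). Further matches, in capitals with 8 bases on each side of the first match where the promoter allows, are given to set chaperones with smaller differences beside HSPA6, at chr11:123062346-123062374 (-) for HSPA8, chr14:102087112-102087140 (-) for HSP90AA1, chr9:33025268-33025296 (+) for DNAJA1, chr11:90223089-90223117 (-) for CHORDC1 and chr2:197500065-197500090 (-) for HSPD1. The longer runs of capitals in CHORDC1 and HSPD1 are overlapping matches, which extend into the bases after the first.
HSPA8: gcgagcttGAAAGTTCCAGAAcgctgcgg
HSP90AA1: gagggttcTTCCGGAAGGTTCgggaggct
DNAJA1: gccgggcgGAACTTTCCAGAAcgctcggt
CHORDC1: cgcgaccgGAAAATTCGCGAAGGTTCctg
HSPD1: gcattTTCTGGAAAGTTCTGGAAccg

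Of 21 genes of the HSP70 and HSP40 families, 15 rose and 0 fell with compound 4 relative to compound 1 (median 0.22). With compound 1, 8 were lower than with vehicle, where 5.63% of all genes tested were. Over all genes, the number of calls in that comparison changed with single libraries, as given above. HSPA1B, a major inducible HSP70, had 10.38, 10.67 and 10.47 with compound 4, against 9.36, 9.33 and 9.26 with compound 1, and 9.62, 9.66 and 9.64 with vehicle. The 3 groups did not overlap, and the difference of 1.19 between the compounds was made of 0.87 above vehicle with compound 4 and -0.32 against vehicle with compound 1. Reads of HSPA1B and of the near-identical HSPA1A, which was higher by 0.63, cannot be fully told apart. HSPH1, an HSP70 exchange factor, was higher by 0.66 and DNAJB1, an HSP40 co-chaperone, by 0.54.

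Of 14 small heat shock proteins, HSP90 genes and cofactors, 9 rose and 1 fell. The 1 that fell was not called without compound 4 replicate 2 or compound 1 replicate 2 or 3. With compound 1, 9 of the 14 were lower than with vehicle, where 5.63% of all genes tested were. CRYAB, alpha-B crystallin, had 6.81, 7.02 and 6.82 with compound 4, against 5.97, 5.88 and 5.97 with compound 1, a difference of 0.95. FKBP4, an HSP90 cofactor, was higher by 0.38, of which 0.17 was compound 4 above vehicle and -0.21 compound 1 against vehicle, and HSP90AA1, inducible HSP90, was also higher by 0.38. Among the genes picked by their heat shock element, HSPA8 was higher by 0.32, DNAJA1 by 0.29 and HSPD1 by 0.23, and these 3 were lower with compound 1 than with vehicle, with differences of -0.35, -0.23 and -0.14, all called.

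Proteasome subunits differed between the compounds, with few calls for compound 4 against vehicle. Of 27 subunit genes, 17 rose and 0 fell with compound 4 relative to compound 1 (median 0.13). Against vehicle, compound 4 gave 3 higher and 2 lower, where 19.0% and 21.6% of all genes tested were, and compound 1 gave 0 higher and 18 lower, where 5.24% and 5.63% were. The median difference of the list from vehicle was 0.01, 0.00 and -0.01 in the compound 4 libraries and -0.15, -0.12 and -0.18 in the compound 1 libraries. PSMC4, an ATPase of the proteasome cap, had 11.70, 11.74 and 11.65 with compound 4, against 11.37, 11.41 and 11.28 with compound 1, a difference of 0.34, and PSMD2, a scaffold subunit, differed by 0.27. With quantile-normalized libraries, 7 rather than 3 subunits were higher with compound 4 than with vehicle.

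**Figure D4:**
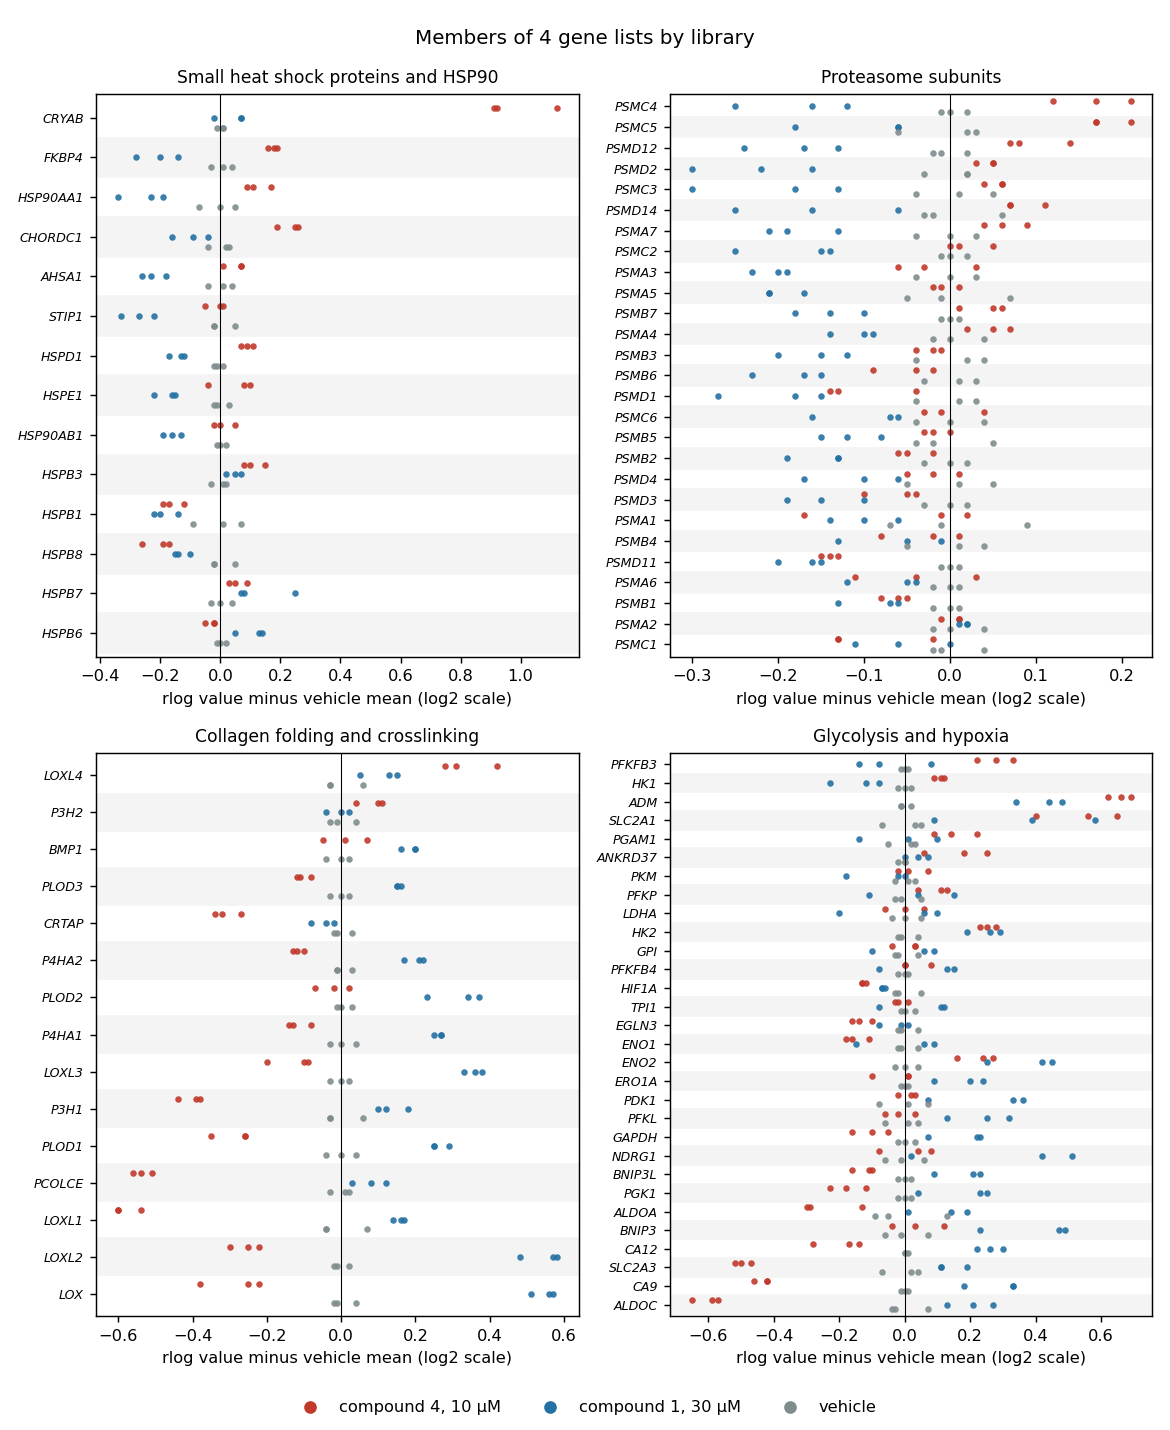
Each measured member of 4 gene lists is drawn as rlog value minus the vehicle mean (log2 scale), 1 point per library, with compound 4 above compound 1 and vehicle in each row. Most proteasome subunits lie near vehicle with compound 4 and below it with compound 1, and LOX and LOXL2 lie below vehicle with compound 4 and above it with compound 1.

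HMOX1, heme oxygenase, which degrades heme (chr22:35380361-35394214), had 12.79, 12.86 and 12.72 with compound 4, against 11.25, 11.26 and 11.25 with compound 1, and 11.25, 11.29 and 11.26 with vehicle. The compound 4 libraries stood apart from compound 1 and vehicle, by 1.54 ± 0.039 from compound 1 (SE, n = 3 each, 2.90-fold, limma, adjusted p = 2.96e-21). The compound 5 libraries, at 12.58, 12.48 and 12.49, were also above compound 1 and vehicle. FTH1, the ferritin heavy chain that stores iron, was higher by 0.70, and its mean was 16.44 with compound 4, 16.31 with compound 5 and 15.69 with vehicle. ALAS1, which starts heme synthesis, was higher by 0.41 and TFRC, the transferrin receptor, by 0.37. In all, 6 of 17 heme and iron genes rose and 5 fell, where 20.9% of all genes tested rose and 21.8% fell. Of 23 genes for glutathione, thioredoxin and other NRF2 targets, 9 rose and 4 fell, with a median of 0.066. SLC7A11, the cystine importer, was higher by 0.48, NQO1, a quinone reductase, by 0.38, GCLM, a subunit of the enzyme that begins glutathione synthesis, by 0.33 and TXNRD1, thioredoxin reductase, by 0.24. SRXN1, sulfiredoxin, differed by 0.09 and was not called (limma, adjusted p = 0.0887), and TKT, transketolase, fell by 0.47. NQO1 and TXNRD1 were lower with compound 1 than with vehicle, with differences of -0.16 and -0.18.

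Of 11 metallothionein and zinc transport genes, 7 rose and 2 fell; the 2 that fell were 1 without compound 4 replicate 3 or compound 1 replicate 1. MT2A, which binds zinc and copper, had 15.74, 15.74 and 15.78 with compound 4, against 15.21, 15.25 and 15.12 with compound 1, a difference of 0.56. MT1G was higher by 0.51 and MT1E by 0.47, and the MT1 paralogs may share reads. SLC39A10, a zinc importer, fell by 0.37. Of 8 aldo-keto reductases, 5 fell and 1 rose. AKR1B1, the aldose reductase, had 15.75, 15.76 and 15.81 with compound 4, against 15.37, 15.39 and 15.43 with compound 1, with a compound 4 mean near the vehicle mean of 15.80, and AKR1B15, a close paralog, differed by -0.48.

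DNA replication genes were higher with compound 4 than with compound 1. Of 42 genes, 38 rose and 0 fell, with a median of 0.27, against -0.0008 over all genes tested. Compound 4 gave 28 higher and 0 lower than vehicle, where 19.0% of all genes tested were higher, and compound 1 gave 0 higher and 11 lower, where 5.63% were lower. CDC6, which loads the MCM helicase at origins (chr17:40287633-40304657), had 10.36, 10.44 and 10.33 with compound 4, against 9.67, 9.88 and 9.45 with compound 1, and 9.75, 10.01 and 9.78 with vehicle. Compound 4 libraries were above those of compound 1 and vehicle, which overlapped, with a difference between the compounds of 0.71 ± 0.073 (SE, n = 3 each; limma, adjusted p = 8.22e-09). MCM10, an initiation factor, was higher by 0.64, GINS4, part of the replicative helicase, by 0.55 and CLSPN, a checkpoint adaptor at forks, by 0.52. The count of 11 for compound 1 against vehicle rests on single libraries: it was 7 without compound 1 replicate 1, 18 without compound 1 replicate 2, 2 without compound 1 replicate 3, 2 without vehicle replicate 2 and 7 without vehicle replicate 3. The 28 for compound 4 against vehicle became 18 with no filter on low values.

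The element TTTNGCGC, of the class bound by E2F factors, was present on either strand in 15 of 36 replication genes with a promoter in the table (41.7%), against 593 of 27305 genes (2.17%). CDC6 and 5 genes picked by their match and by their place in the helicase or as E2F factors are printed to compare the letters, with the element in capitals and 8 bases on each side of the first match. Adjoining capitals mark overlapping matches on opposite strands. Regions are chr17:40287878-40287901 (+) for CDC6, chr3:127598405-127598428 (+) for MCM2, chr6:52284731-52284754 (-) for MCM3, chr2:135876580-135876603 (-) for MCM6, chr20:33686390-33686413 (-) for E2F1 and chr1:23531260-23531283 (-) for E2F2.
CDC6: cattcggaTTTGGCGCgagcgcgg
MCM2: gaaccactTTTCGCGCGAAAcctg
MCM3: tcggaagtTTTCGCGCcggggtgg
MCM6: gctttgcaTTTGGCGCGAAAtccc
E2F1: aaaaaggaTTTGGCGCgtaaaagt
E2F2: gcacgacgTTTGGCGCTAAAaaaa
The helicase subunits MCM2, MCM3 and MCM6 were higher with compound 4 by 0.30, 0.39 and 0.23, and the transcription factors E2F1 and E2F2 by 0.33 and 0.43, all 5 called.

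Genes of later cell cycle stages differed less. Of 36 genes of G2 and mitosis, 16 rose and 2 fell (median 0.081). Compound 1 gave 14 lower and 0 higher against vehicle, where 5.63% and 5.24% of all genes tested were. MKI67 and TOP2A, proliferation markers, were not called, at -0.026 (95% interval -0.15 to 0.10) and 0.060 (-0.026 to 0.15), intervals that leave room for differences of either sign. CCNB1, the mitotic cyclin, had 12.12, 12.13 and 12.23 with compound 4, against 11.99, 11.95 and 11.87 with compound 1, a difference of 0.22, and its vehicle mean was 12.15. AURKA, a spindle kinase, and CDC20, an activator of the anaphase-promoting complex, showed the same arrangement, with compound 1 differing from vehicle by -0.25 and -0.29. Against vehicle, compound 4 gave 4 higher and 8 lower of these genes, 11.1% and 22.2%. Of all genes tested, 19.0% were higher and 21.6% lower, so the share lower was near that of all genes. The 8 were 5 without compound 4 replicate 2 and 4 without vehicle replicate 2 or with quantile-normalized libraries. Of 27 genes of homologous recombination and the Fanconi pathway, 16 rose and 0 fell, including XRCC2 (0.48), BRCA1 (0.46), EXO1 (0.40) and FANCI (0.35), which act in the repair of DNA breaks and crosslinks. CDK inhibitors and G1 cyclins gave 6 higher and 3 lower of 12. CCND1, the G1 cyclin, was higher by 0.66 and RBL1, an RB relative, by 0.44, while CDKN2D, an inhibitor of CDK4, fell by 0.32. CDKN1A, p21, was higher by 0.15, and compound 1 differed from vehicle by -0.20 for it.

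Among matrix and growth factor genes were cases in which compound 1 stood farther from vehicle than compound 4 did. IGFBP3, which binds insulin-like growth factors (chr7:45912245-45921874), had 13.69, 13.74 and 13.39 with compound 4, against 14.88, 14.96 and 14.57 with compound 1, and 13.63, 13.78 and 13.73 with vehicle. The compound 1 libraries were above those of compound 4 and vehicle, which overlapped, while the compound 5 libraries, at 14.82, 14.58 and 14.57, overlapped with compound 1. IGFBP3 differed between the compounds by -1.20 ± 0.079 (SE, n = 3 each; limma, adjusted p = 1.22e-12), and from vehicle by -0.11 with compound 4 (adjusted p = 0.297) and by 1.09 with compound 1 (adjusted p = 8.77e-10). TIMP3, an inhibitor of metalloproteinases (chr22:32801701-32863043), had 12.11, 12.06 and 11.99 with compound 4, against 13.07, 13.09 and 12.84 with compound 1, and 12.20, 12.22 and 12.21 with vehicle. Compound 1 was again above compound 4 and vehicle, and overlapped with compound 5 (13.15, 12.89 and 12.85). TIMP3 differed from vehicle by -0.16 with compound 4 and by 0.79 with compound 1, both called. HSPG2, a basement membrane proteoglycan, TENM2, a cell adhesion receptor, and TGFBI, an integrin ligand, differed from vehicle by -0.03, -0.09 and -0.14 with compound 4 and by 0.60, 0.61 and 0.56 with compound 1, and of the compound 4 differences only that of TGFBI was called. LRP1, an endocytic receptor, was above vehicle with both compounds, by 0.27 with compound 4 and 0.58 with compound 1. Of 11 genes of insulin-like growth factor binding and signalling, 6 fell and 1, IGFBP1, was higher by 0.90 between the compounds. With compound 1, 6 of the 11 were higher than with vehicle, where 5.24% of all genes tested were.

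Genes that fold and crosslink collagen were mostly below vehicle with compound 4 and above it with compound 1. Of 15 genes, 13 fell and 1 rose with compound 4 relative to compound 1, with a median of -0.38. Compound 4 gave 11 lower and 1 higher than vehicle, where 21.6% of all genes tested were lower, and compound 1 gave 11 higher and 0 lower, where 5.24% were higher. LOX, lysyl oxidase (chr5:122063195-122078360), had 13.35, 13.32 and 13.19 with compound 4, against 14.14, 14.13 and 14.08 with compound 1, and 13.56, 13.55 and 13.61 with vehicle. The 3 groups did not overlap, with vehicle between the compounds, and the difference between the compounds was -0.83 ± 0.041 (SE, n = 3 each; limma, adjusted p = 3.26e-15). LOXL2, a related oxidase, had 14.59, 14.56 and 14.51 with compound 4, against 15.38, 15.39 and 15.29 with compound 1, also on both sides of vehicle. LOXL1 differed by -0.74 and PCOLCE, an enhancer of procollagen cleavage, by -0.61.

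Of 20 collagen chains, 12 fell and 3 rose (median -0.16), where 21.8% of all genes tested fell and 20.9% rose. COL1A2 of type I collagen had 14.62, 14.60 and 14.69 with compound 4, against 15.39, 15.32 and 15.43 with compound 1, a difference of -0.75 that lay almost wholly between compound 4 and vehicle (-0.67). COL5A1 and COL6A3 lay on both sides of vehicle, at -0.23 and -0.35 with compound 4 and 0.50 and 0.36 with compound 1. SERPINH1, the collagen chaperone of the endoplasmic reticulum, fell by 0.75. Of 19 matricellular and adhesive proteins, 12 fell and 4 rose, including EFEMP1, a fibulin (-0.98), SPARC, which binds collagen (-0.89), and FBN1, fibrillin (-0.84). Of 15 integrin subunits, 10 fell and 2 rose, with ITGA3 at -0.29 and ITGA10 at -0.27 against ITGA2 at 0.39 and ITGB3 at 0.35. Mesenchymal factors and cadherins gave 10 lower and 1 higher of 16, with TWIST1 at -0.62 and SNAI2 at -0.52, both transcription factors, and VIM, vimentin, at -0.29.

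Proteases and their regulators went in both directions, as did all genes tested, with 20.9% higher and 21.8% lower. Of 19 metalloproteinases and TIMPs, 8 rose and 4 fell. MMP3, stromelysin, had 12.97, 12.97 and 13.07 with compound 4, against 11.70, 11.80 and 11.72 with compound 1, a difference of 1.26, and MMP1, the interstitial collagenase, was higher by 0.61 and ADAMTS5, an aggrecanase, by 0.51. Plasminogen activators and serpins gave 6 higher and 5 lower of 13. SERPINB2, an inhibitor of plasminogen activators, had 10.06, 10.22 and 9.99 with compound 4, against 8.15, 8.30 and 8.05 with compound 1, and differed by 1.92 (3.79-fold). TFPI2, a serine protease inhibitor, was higher by 1.26, and PLAU, urokinase, by 0.98. All 4 of MMP3, SERPINB2, TFPI2 and PLAU differed from vehicle with compound 4 and were not called with compound 1.

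Glycolytic and hypoxia-induced genes gave 16 lower and 5 higher of 30 with compound 4 relative to compound 1 (median -0.13); the 5 were 3 without compound 4 replicate 2 or compound 1 replicate 3. ALDOC, an aldolase, had 10.74, 10.72 and 10.66 with compound 4, against 11.58, 11.52 and 11.44 with compound 1, and its vehicle mean was 11.31. CA9, a hypoxia-induced carbonic anhydrase, differed by -0.71, SLC2A3, a glucose transporter, by -0.63, CA12 by -0.46 and GAPDH by -0.28. Compound 1 gave 16 higher and 1 lower against vehicle, where 5.24% and 5.63% of all genes tested were. The 16 were 9 without compound 1 replicate 1 or with no filter. Compound 4 gave 7 higher (23.3%) and 10 lower (33.3%) than vehicle, where 19.0% and 21.6% of all genes tested were. TXNIP, which restrains glucose uptake and binds thioredoxin, had 13.53, 13.42 and 13.63 with compound 4, against 14.97, 14.89 and 15.11 with compound 1, and fell by 1.46, and its relative ARRDC4 fell by 0.41, in a list of 8 where 2 rose and 3 fell. Glucocorticoid-responsive genes gave 3 higher and 4 lower of 9. TSC22D3, a glucocorticoid-induced gene, fell by 1.15 and DUSP1, a phosphatase of MAP kinases also induced by glucocorticoids, was higher by 0.81.

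Stress and amino acid genes went in both directions, beside 20.9% of all genes tested that rose and 21.8% that fell. Of 16 effectors of ATF4 and CHOP, 6 rose and 5 fell, and the 5 were 3 without compound 1 replicate 1. PPP1R15A, which restarts translation after stress, had 11.29, 11.31 and 11.26 with compound 4, against 10.43, 10.43 and 10.27 with compound 1, a difference of 0.91. ATF3, a stress-induced transcription factor, was higher by 0.83, GDF15, a secreted stress cytokine, by 0.72 and DDIT3, which encodes CHOP, by 0.23. TRIB3 and CHAC1, at 0.08 and 0.07, were not called. Genes of amino acid synthesis gave 9 lower and 2 higher of 16, the 2 being 1 without any single compound 4 library or without compound 1 replicate 2 or 3. PYCR1, of proline synthesis, differed by -1.01, PHGDH, which begins serine synthesis, by -0.65, ALDH1L2, of mitochondrial folate metabolism, by -0.62, and ASNS, asparagine synthetase, by -0.16. Amino acid transporters gave 7 lower and 2 higher of 14, with SLC1A5, the glutamine carrier, at -0.61 and SLC3A2, the partner of SLC7A11, at 0.56. Chaperones of the endoplasmic reticulum gave 6 higher and 8 lower of 20, with XBP1 at -0.25, CALR at -0.25 and SDF2L1 at 0.32.

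Of 8 ligands and receptors of the EGF receptor family, 5 rose and 2 fell (median 0.38), where 20.9% of all genes tested rose and 21.8% fell. HBEGF, a ligand of the EGF receptor (chr5:140332843-140346631), had 10.83, 10.84 and 10.87 with compound 4, against 9.74, 9.89 and 9.53 with compound 1, and 9.87, 10.05 and 10.02 with vehicle. The compound 4 libraries were above both other groups, and the difference of 1.13 was made of 0.87 above vehicle with compound 4 and -0.26 against vehicle with compound 1 (limma, adjusted p = 0.00442). NRG1, a ligand of the related ERBB receptors, was higher by 0.92, EREG by 0.72 and TGFA by 0.50. EGFR, a receptor of EREG and TGFA, differed by -0.21. Of 11 AP-1 genes, 7 rose and 3 fell, with FOSB at 0.60, MAFK at 0.52, MAFF at 0.50 and FOSL1 at 0.47. Of 14 feedback inhibitors of MAP kinase signalling, 9 rose and 0 fell, with SPRY4 at 0.55, DUSP5 at 0.54, DUSP6 at 0.41 and SPRY2 at 0.35. Of 15 early response genes, 6 rose and 3 fell. ARC and IER3 were higher by 0.98 and 0.68, whereas EGR1, an early transcription factor, fell by 0.68 with 10.71, 10.60 and 10.61 with compound 4, against 11.28, 11.26 and 11.42 with compound 1.

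Of 23 p53 targets, 14 rose and 5 fell (median 0.12), where 20.9% of all genes tested rose and 21.8% fell. GADD45B and GADD45A, growth arrest and DNA damage genes, were higher by 1.14 and 0.62, AEN, a nuclease, by 0.45, and CCNG1 fell by 0.44. Of 13 BCL2 family genes, 6 rose and 1 fell; the gene that fell was not called without compound 4 replicate 3 or compound 1 replicate 2 or 3. MCL1, which blocks apoptosis, was higher by 0.37, and PMAIP1, BAX and BAK1, which promote it, by 0.27, 0.25 and 0.15. Of 32 ribosome biogenesis genes, 23 rose and 1 fell (median 0.16), with the same counts for compound 4 against vehicle. In that comparison, 19.0% of all genes tested were higher and 21.6% lower. Compound 1 gave 0 higher and 2 lower than vehicle, where 5.24% and 5.63% of all genes tested were. NOP56, a core protein of box C/D particles, was higher by 0.66 and RRS1, a ribosome assembly factor, by 0.52.

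Microtubule genes, of interest because of the drug in the title, gave few large differences. Of 13 tubulins, 4 rose and 3 fell, where 20.9% and 21.8% of all genes tested did. TUBA1A, an alpha-tubulin, had 11.21, 11.24 and 11.27 with compound 4, against 11.73, 11.67 and 11.60 with compound 1, a difference of -0.43, while TUBG1, which nucleates microtubules, was higher by 0.27 and TUBB6 by 0.18. TUBB differed by -0.068 (95% interval -0.15 to 0.010) and TUBB3 by 0.0094 (-0.059 to 0.077), neither of them called, and tubulin paralogs may share reads. Of 27 microtubule-associated proteins, 9 rose and 6 fell, with HDAC6, a tubulin deacetylase, at -0.44, MAP4 at -0.33 and MAPRE1, a plus-end protein, at 0.29. Of 6 multidrug efflux transporters, 2 were called, ABCG2 at 0.26 and ABCC10 at 0.12, and ABCC10 was lost when any library of either compound was left out.

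Mitochondrially encoded mRNAs were higher with compound 4 in a way that depended on single libraries. Of 13, 7 rose and 0 fell, and all 13 were higher with compound 4 than with vehicle, where 19.0% of all genes tested were. MT-CYB, cytochrome b, had 14.11, 14.19 and 13.66 with compound 4, against 13.46, 13.56 and 13.58 with compound 1, so that compound 4 replicate 3 lay close to the compound 1 libraries. The list median stood 0.46, 0.49 and 0.17 above vehicle in the compound 4 libraries and 0.07, 0.14 and 0.28 in the compound 1 libraries, which overlap. The count of 7 was 4 without compound 4 replicate 1 or compound 1 replicate 1, 12 without compound 4 replicate 3, 11 without compound 1 replicate 3 and 2 with a robust variance. NEAT1, a nuclear noncoding RNA that builds paraspeckles, had 12.79, 12.73 and 12.74 with compound 4, against 12.39, 12.30 and 12.67 with compound 1, and 11.69, 11.92 and 12.12 with vehicle, so both compounds were above vehicle, and the call between the compounds was lost with no filter or with a robust variance. Nuclear noncoding transcripts gave 3 higher and 3 lower of 8. NORAD, which binds Pumilio proteins, fell by 0.58, and MALAT1 was not called, at -0.13.

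The remaining lists gave calls in both directions, where 20.9% of all genes tested rose and 21.8% fell, and some were not far from these shares. Interferon-stimulated genes gave 9 lower and 2 higher of 22, with STAT2 at -0.40 and MX2 at -0.36, the 2 being 1 without compound 4 replicate 2 or 3 or compound 1 replicate 1 or 3. YAP and TEAD targets gave 7 lower and 2 higher of 15, with AXL at -0.31 and ANKRD1 at 0.41. Lysosome and autophagy genes gave 10 lower and 8 higher of 25, with ULK1, an autophagy kinase, at -0.44. Aminoacyl-tRNA synthetases gave 7 lower and 6 higher of 20, and the 7 were 4 with quantile-normalized libraries. Actomyosin genes gave 5 higher and 4 lower of 16, the 5 being 1 or 2 without compound 4 replicate 1 or 2 or compound 1 replicate 1 or 3, and ACTB, beta-actin, outside that list, was higher by 0.12, a call lost without any single compound 4 library or without compound 1 replicate 1 or 3. Glial markers gave 5 lower and 2 higher of 10, the 5 being 3 without compound 1 replicate 3, with NES, nestin, at -0.26, CD44 at 0.27 and GFAP not called at 0.058. The summed level of the glial list was 16.69 to 16.71 with compound 4, 16.76 to 16.81 with compound 1 and 16.76 to 16.79 with vehicle. This sum is mostly VIM and CD44, with means of 15.98 and 15.2 over the 12 libraries, against 5.71 for GFAP. VIM, named above with the mesenchymal factors, differed by -0.29 and CD44 by 0.27, so the sum does not measure glial content.

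**Figure D5:**
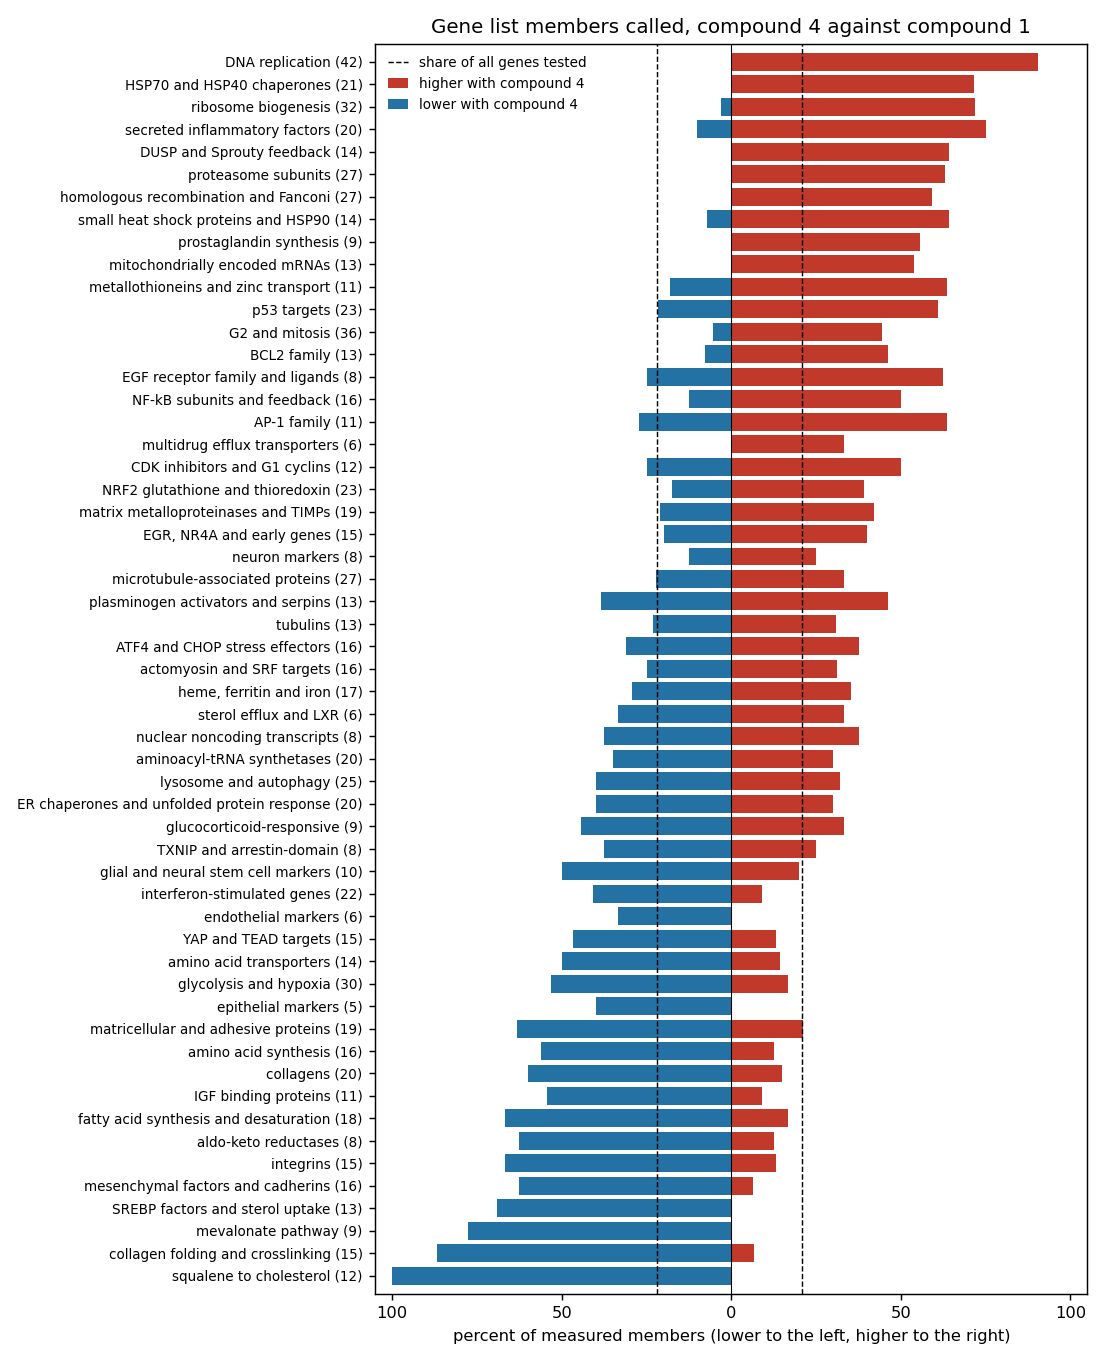
For each gene list with at least 5 measured members, the share of members called higher (bars to the right) and lower (bars to the left) with compound 4 than with compound 1 is shown in percent, and dashed lines mark the shares over all genes tested, 20.9% and 21.8%. DNA replication, ribosome biogenesis, HSP70 and HSP40 chaperones and secreted inflammatory factors reach far past the line on the right, and cholesterol synthesis and collagen folding and crosslinking on the left.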

How the data were processed

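Poly(A) RNA of U87 cells was sequenced as paired-end reads on a NovaSeq, per the labels, in 12 libraries. Alignment was to GRCh38 with STAR 2.7.10a, per the submitters' processing notes. The authors deposited regularized log values on the log2 scale, made from gene counts with DESeq2 1.30.1, per the submitters' processing notes. How reads were counted, and on which annotation and strand, was not given in the sources used here. Counts were not used here, so depth is unknown, no counting interval was computed and precision rests on the spread between libraries (median residual SD 0.0468).

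Genes with a mean of at least 3 over the 12 libraries were tested. A linear model with 1 mean for each group was fitted to all libraries with limma 3.58.1 (R 4.3.3), variances being moderated along a trend with the mean. Benjamini-Hochberg adjustment ran over all 15524 genes, separately by comparison, and a call means an adjusted p under 0.05. Tests are two-sided, gene by gene, with variances moderated across genes. The error given is the SE of the difference, and intervals are 95%. The groups came from the labels' treatments. On simulated data for compound 4 against compound 1 (15524 genes, 200 of them changed), a difference of 0.2 was called for 75% of the changed genes and one of 0.5 for 100%, with 3.85% of calls false. The simulated noise was independent between genes and libraries, and far fewer genes were changed than were called in the data. These rates therefore need not hold for the reported calls.

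Members and gene lists (56 lists with 974 entries, of which 894 were measured) were chosen with earlier results of these data known. Named genes were the 12 largest differences in each direction among called genes whose libraries of the compounds did not overlap, the largest called differences of each list (up to 4), a fixed set, the 6 called genes with the largest difference of compound 1 from vehicle, and 3 called genes with a LINC name or an AS suffix in each direction, 247 in all. Genes named by another choice are marked so. Some genes that the rule names are not reported here. Gene coordinates are from GENCODE 29, found for 15099 of the genes tested. Promoters are from RefSeq (GRCh38.p14) and were matched by symbol. Other settings were no filter, a mean of at least 5, median-centred libraries, quantile normalization, a fit without the other groups, robust variances, no trend, library weights, a test against a difference of 0.5, the replicate number as a block and leaving out each library. Figures used Python 3.11.15, pandas 2.3.3, numpy 2.4.6 and matplotlib 3.10.9.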

Additional observations from a re-analysis of the deposited data

How the results depend on the processing

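Testing each difference against 0.5 left 134 genes called for compound 4 against compound 1, 122 for compound 4 against vehicle and 1 for compound 1 against vehicle. For compound 1 against vehicle, 800 genes were called with no filter on low values and 2734 with library weights, against 1688. Leaving out each library in turn gave 5687 to 7135 calls for compound 4 against compound 1, 5128 to 6819 for compound 4 against vehicle and 849 to 2363 for compound 1 against vehicle. The count for compound 4 against compound 1 was 5736 with no filter and 7715 with library weights. No named gene called between the compounds changed sign under any setting that fitted it. Changes of sign were not checked for the list counts or for single genes against vehicle. Of the 238 named genes called between the compounds, 69 passed the test against 0.5, and 232 to 238 stayed called under the other settings that fitted all of them; with a mean of at least 5, 235 of 236 did. The calls lost there were of ABCC10, ACTB, CHI3L1, MT-CO3, MT-ND4, MT-ND4L, NEAT1, GAPDH, TPM4, LRP1 and SOAT1. Counts of 1 to 3 members of a list often changed when a library was left out. The labels give all groups the same replicate numbers. Deviations from the group means correlated at r of -0.0306, 0.133 and 0.0754 across genes for same-numbered compound 4 and compound 1 libraries. For same-numbered compound 1 and vehicle libraries r was 0.0132, 0.249 and 0.171, and for unlike-numbered ones it ran from -0.265 to 0.0756. So few correlations cannot settle whether the numbers pair the libraries. With the replicate number as a block, 6627 genes were called between the compounds, 3244 higher and 3383 lower, and 6309 and 1706 for compound 4 and compound 1 against vehicle. Depth is unknown, and rlog shrinkage limits what can be read from genes with few reads. Results rest on 1 cell line, 1 time and 1 dose per compound.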
